A study of Mus musculus with 29 samples.

Results

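The immunoglobulin kappa variable (Igkv) segments are the gene pieces from which the variable part of every kappa light chain is built. They were taken as all rows of the deposited gene count table whose symbol starts with Igkv and a number, which gave 160 of 54532 genes, and no measured value entered that choice. Their counts were read in colon RNA of 29 mice, 1 library per mouse. Untreated Balb/C mice (WT control, n = 3) stood beside Balb/C mice given 3% DSS in drinking water over 5 days and killed at day 10 (n = 3), Balb/C mice given 3 mg of DNBS in ethanol into the rectum (n = 3), and Balb/C mice labelled as given an IL10 blocking antibody (IL-10 blockade, n = 4), for which the protocol names 750 µg of anti-IL-10R and killing after 4 weeks or at earlier signs of colitis. DSS is a detergent-like sugar polymer that injures the epithelium and DNBS a hapten that provokes a local reaction. The 13 mice of these 4 groups can make B cells. The background without B cells came from Rag-deficient mice of both strains. Untreated C57BL/6 Rag1-/- mice (n = 3) stood beside C57BL/6 Rag1-/- mice given 50 µg of agonist anti-CD40 and killed after 7 days (n = 3). C57BL/6 recipients of naive CD4+ T cells (TCT, n = 3) were given 0.5 × 1000000 cells each and killed after 6 to 8 weeks. Untreated Balb/C Rag2-/- mice (n = 3) stood beside Balb/C Tbx21-/- x Rag2-/- mice with spontaneous colitis (TRUC, n = 4). The labels give the TCT recipients as Rag1-/- in the genotype and as Rag2-/- in the protocol, and give no age for any group. The paper describes some of these models on another background and speaks of Il10-/- mice where the labels give the blocking antibody, and the labels were followed here.

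A kappa light chain arises when the Rag1 and Rag2 recombinase joins 1 Igkv segment to 1 of the short joining segments (Igkj) in front of the constant gene Igkc. Each B cell and its descendants carry the join they made. Unrelated B cells can use the same Igkv segment, so a segment's count does not mark a single family of cells. The gene counts used here do not show the joins. The gut wall is rich in plasma cells, which secrete mostly IgA and transcribe their light chain at very high levels. In bulk tissue, fewer such cells and less light chain RNA per cell cannot be told apart.

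In GENCODE M21 (GRCm38) the 160 segments lie on chromosome 6, from Igkv2-137 at chr6:67555497-67556216 to Igkv3-1 at chr6:70703578-70704177, with Igkc at chr6:70726435-70726966. The annotation calls 100 of them genes and 60 pseudogenes. The plus strand, on which Igkc and the joining segments lie, holds 75 segments, which join by deletion of the DNA between them, and the minus strand holds 85, which join by inversion.

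The 3′ ends of the 10 segments with the highest mean usage, and of 4 others that led in a mouse, are shown because they are the part of a segment that enters the antigen-binding loop next to the joining segment. Each line is the last 60 bases of the segment's exon in the GENCODE M21 transcripts, 5′ to 3′ on the coding strand. Capitals mark the codon of the conserved cysteine that closes the third framework and all bases after it, which open the third complementarity-determining region. They are reference sequences of the C57BL/6 genome and were not read from these mice.
Igkv1-117: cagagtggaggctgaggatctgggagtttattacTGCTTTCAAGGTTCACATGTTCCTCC
Igkv8-30: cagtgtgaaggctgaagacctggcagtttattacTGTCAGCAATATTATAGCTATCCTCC
Igkv1-135: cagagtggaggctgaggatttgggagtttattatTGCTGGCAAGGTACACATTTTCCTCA
Igkv10-96: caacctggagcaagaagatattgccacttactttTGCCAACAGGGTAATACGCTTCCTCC
Igkv1-110: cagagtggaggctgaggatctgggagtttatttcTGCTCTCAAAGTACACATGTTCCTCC
Igkv8-24: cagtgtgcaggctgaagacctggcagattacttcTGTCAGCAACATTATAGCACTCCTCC
Igkv8-27: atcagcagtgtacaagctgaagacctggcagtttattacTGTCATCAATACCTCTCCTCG
Igkv8-21: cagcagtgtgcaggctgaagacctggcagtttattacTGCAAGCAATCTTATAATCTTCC
Igkv2-109: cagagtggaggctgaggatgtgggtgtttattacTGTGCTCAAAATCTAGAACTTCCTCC
Igkv14-111: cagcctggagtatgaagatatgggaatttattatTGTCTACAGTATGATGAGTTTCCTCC
Igkv12-46: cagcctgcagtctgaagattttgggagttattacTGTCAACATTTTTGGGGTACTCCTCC
Igkv3-2: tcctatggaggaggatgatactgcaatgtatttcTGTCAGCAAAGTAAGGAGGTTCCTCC
Igkv4-50: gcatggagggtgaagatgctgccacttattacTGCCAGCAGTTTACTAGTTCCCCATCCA
Igkv4-70: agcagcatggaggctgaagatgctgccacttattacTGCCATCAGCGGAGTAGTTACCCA

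These stretches lie, in the same order, at chr6:68121768-68121827 (+), chr6:70117061-70117120 (-), chr6:67610449-67610508 (+), chr6:68631963-68632022 (-), chr6:68271208-68271267 (+), chr6:70216858-70216917 (-), chr6:70171809-70171868 (-), chr6:70314895-70314954 (-), chr6:68303099-68303158 (+), chr6:68256810-68256869 (+), chr6:69764523-69764582 (-), chr6:70699008-70699067 (+), chr6:69700767-69700826 (-) and chr6:69267888-69267947 (-). The cysteine codon was found in 98 of the 100 genes, with 86 different endings from that codon on. Of these endings, 10 occur in more than 1 segment and cover 22 segments. Igkv8-24 and Igkv6-25 share theirs, although they belong to different families, and Igkv4-70 shares its ending with Igkv4-69. The annotated ending of Igkv8-27 is short, with 21 bases against 26 in Igkv8-24. Over the last 280 bases Igkv1-117 and Igkv1-110 are identical at 96.8% of aligned positions, Igkv8-30 and Igkv8-24 at 92.1%, Igkv8-30 and Igkv8-21 at 90.1%, and Igkv4-50 and Igkv4-70 at 88.4%. Such likeness bears on the counts: 88 of the 160 segments share more than 10% of their 50-base windows with another gene, 49.9% for Igkv1-117 and 50.9% for Igkv1-110, but 0% for Igkv8-24, Igkv14-111 and Igkv6-32. How reads that match several segments, or that run across the join into Igkj, were counted is not given in the sources used here.

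Library totals ran from 10725564 to 14977094 counts. No Igkv count was found in any of the 6 untreated Rag-deficient libraries, and the 16 Rag-deficient libraries together held 8 (exact Poisson 95% interval 3.45 to 15.8, for counting error only). These were 3 counts in TCT replicate 5, 2 in anti-CD40 replicate 8, and 1 and 2 in TRUC replicates 3 and 4. Igkv8-24 held 3 of the 8, and Igkv1-122, Igkv14-111, Igkv14-100, Igkv4-72 and Igkv6-14 held 1 each. In the 13 mice that can make B cells the summed Igkv count ran from 340 to 18741, and Igkc, at most 12 counts in a Rag-deficient library, ran from 635 to 22876. The labels and the locus therefore matched in every library.

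In the 3 WT controls the Igkv total was 134 ± 95.0 CPM (counts per 1000000 counts of the library, scaled by TMM, the trimmed mean of M-values; SD, n = 3), while a count of 0 in the Rag2-/- controls allows 3 counts per library, or 0.240 CPM on average. WT controls were therefore at least 558-fold higher in the total, at least 53.3-fold in Igkv1-117 and at least 2.86-fold in Igkv14-111, the highest and lowest bounds among the 10 most used segments. Without WT control replicate 4, which had the highest total, the bounds were 335-fold for the total and 29.6-fold for Igkv1-117. By edgeR's quasi-likelihood test over all 29 mice, 28 of the 71 segments tested were higher in WT controls and 0 lower (adjusted p under 0.05), beside 4.86% of all genes tested that were higher and 3.25% lower. With these 2 groups fitted alone, 44 of 49 tested segments passed, but 16 were higher when any 1 of the Rag2-/- controls was left out and 19 without WT control replicate 4. A segment could enter these tests only through the mice that have B cells, so the counts describe the locus and are no separate evidence. TRUC against Rag2-/- controls, TCT against Rag1-/- controls and anti-CD40 against Rag1-/- controls each had 0 segments past the threshold. Each also had 0 at an unadjusted p under 0.05 by edgeR. Of all genes, 22.4%, 16.1% and 10.9% were higher and 23.4%, 14% and 10.7% lower. The controls held 0 Igkv counts and TRUC, TCT and anti-CD40 held 3, 3 and 2 in all. The counts were thus too few for a segment to pass, and the lack of calls is no finding. DESeq2 on the 2 groups alone had no segment with enough counts to test in these 3 comparisons.

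Among the 13 mice, 111 segments had at least 1 count, 96 of the 100 genes and 15 of the 60 pseudogenes. The remaining 49 had no count in any of the 29 mice. The genes among them were Igkv2-137, Igkv1-131, Igkv20-101-2 and Igkv1-35, each named after its values were seen. Exons of Igkv2-137 overlap those of the gene Gm42889, with which it shares 56.0% of its windows. The part of this overlap in its count of 0 was not tested. Only 36 segments had a count in every one of the 13 mice, and 10 had counts in 1 mouse alone. Pseudogenes took between 0% and 0.369% of a mouse's Igkv counts. The pseudogenes with the highest sums were Igkv2-116 and Igkv4-77, with 24 counts each over the 13 mice. Igkv4-77 shares 30.0% of its windows, most with Igkv4-54. For the tests between groups 74 segments, all of them annotated as genes, reached a mean of 3 counts over the 13 mice.

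The Igkv total was far higher after IL-10 blockade than in the other 3 groups. It was 59.8, 101 and 241 CPM in WT control replicates 1, 2 and 4, and 1408, 1667, 1607 and 717 CPM in IL-10 blockade replicates 1 to 4. DSS replicates 5, 6 and 8 had 91.7, 55.6 and 144 CPM, and DNBS replicates 11, 14 and 16 had 66.2, 51.0 and 28.98 CPM. Every IL-10 blockade mouse lay above every other mouse, replicate 4 lowest, while WT controls, DSS and DNBS overlapped. The group means were 1349.6 ± 436 CPM for IL-10 blockade (SD, n = 4), 134 ± 95.0 for WT controls, 97.0 ± 44.3 for DSS and 48.7 ± 18.7 for DNBS (SD, n = 3 each). The mean of IL-10 blockade was thus 10.1 times that of WT controls, 13.9 times that of DSS and 27.7 times that of DNBS. Without WT control replicate 4 it was 16.8 times that of WT controls. These sums are given without a test. As a share of all counts, the Igkv segments took 0.118% ± 0.0407 of the library after IL-10 blockade and 0.0145% ± 0.00983 in WT controls.

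**Figure D1:**
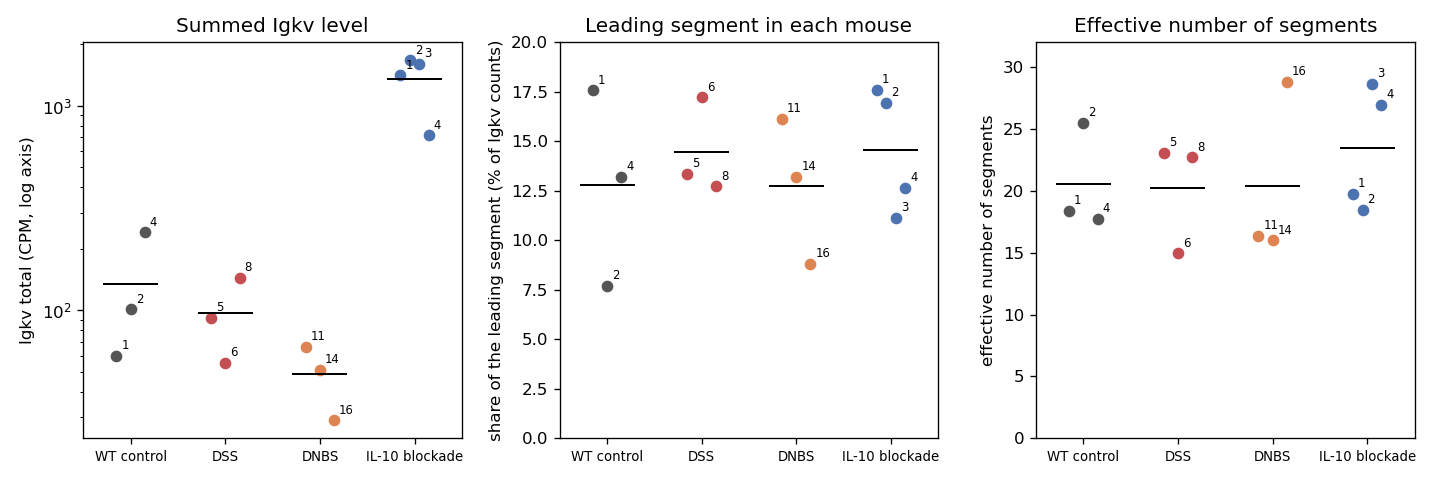
Each point is 1 mouse, labelled with its replicate number, in the groups WT control, DSS, DNBS and IL-10 blockade, and each line is the group mean. The left panel shows the summed Igkv level in CPM on a log axis (717 to 1667 after IL-10 blockade, 28.98 to 241 in the other mice), the middle panel the share of the most used segment in percent of Igkv counts (7.69 to 17.6), and the right panel the effective number of segments (14.96 to 28.8), where the groups overlap.

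Segment by segment, 57 of the 74 tested were higher after IL-10 blockade than in WT controls and 0 lower, beside 22.7% of all 18846 genes tested that were higher and 22.3% lower. In 51 of the 57 the lowest IL-10 blockade mouse lay above the highest WT control. The share of all called genes without overlap is not given here, so this count only describes the segments. The median fitted log2 fold change of the 74 was 4.02, and 3.97 with the 1 segment that was at 0 in all WT controls set at its bound, against -0.02 over all genes. Since a segment could reach the minimum count through the IL-10 blockade mice alone, the count was repeated with the 58 segments that reached it over the other 9 mice, a choice made after seeing the data, and 43 of these 58 were higher. The median fitted log2 fold change of these 58 was 3.48, below that of the 74. The remaining 26 genes and 60 pseudogenes were too low to test.

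Of the 10 most used segments, 8 rose after IL-10 blockade, beside 57 of all 74 tested. The ranking by usage includes the blockade mice, so segments with a high share there enter it more readily. Igkv8-27 held a mean 7.11% of Igkv counts after blockade against 0.855% in WT controls, and Igkv8-21 held 5.30% against 1.42%. Their rises are therefore partly built into the choice. Igkv8-27 was at 0.457, 0.998 and 1.97 CPM in the WT controls and at 59.7, 159, 31.98 and 90.7 CPM in IL-10 blockade replicates 1 to 4, with no overlap (log2 fold change 6.23 ± 0.69 SE, adjusted p = 0.000222). Igkv10-96 had 4.26, 2.13 and 6.64 CPM in WT controls and 52.1, 66.3, 42.8 and 23.6 CPM after blockade, again without overlap (3.42 ± 0.57 SE, adjusted p = 0.000984). Igkv14-111 had 0.457, 0.865 and 0.738 CPM in WT controls and 25.6, 26.2, 61.6 and 6.37 CPM after blockade (5.42 ± 1.02 SE, adjusted p = 0.00166). The rise was therefore seen in all 4 mice for these 3 segments, although its size differed between mice by several fold. For Igkv1-117, the most used segment of all, the WT controls had 10.5, 3.73 and 24.2 CPM and the IL-10 blockade mice 84.2, 68.0, 179 and 31.6 CPM (2.83 ± 0.67 SE, adjusted p = 0.00541). Igkv8-21 rose by 5.82 ± 1.39 SE on the log2 scale (adjusted p = 0.00586), but unevenly, with 6.99, 282, 38.4 and 9.82 CPM in the 4 mice against 0.838, 2.46 and 1.07 CPM in WT controls. Replicate 2 alone held most of that signal. Igkv8-30, with 0.305, 7.79 and 13.2 CPM in WT controls, was at 248, 57.1, 43.0 and 21.5 CPM after blockade (3.71 ± 1.06 SE, adjusted p = 0.0139).

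Both members of the 10 that did not pass are shown by their values. Igkv2-109 had 2.13, 5.46 and 11.4 CPM in WT controls and 8.09, 6.75, 11.4 and 11.9 CPM after IL-10 blockade, so the groups overlapped (0.59 ± 0.59 SE, adjusted p = 0.432). Igkv8-24 had 1.14, 5.06 and 6.07 CPM against 26.5, 14.6, 10.0 and 7.42 CPM (1.84 ± 0.81 SE, adjusted p = 0.0818). Outside the 10, Igkv12-46 had 0.305, 0.200 and 31.8 CPM in WT controls and 22.2, 7.69, 4.46 and 6.48 CPM after blockade (-0.07 ± 1.16 SE, adjusted p = 0.966). WT control replicate 4 was the highest of these 7 mice.

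The largest fitted rises among non-overlapping segments were in segments that WT controls hardly used. Apart from Igkv4-70, the segments in this paragraph reached the minimum count only through the IL-10 blockade mice, so their values are descriptions and no p is given. Igkv12-98 had 2, 0 and 0 counts in WT controls and 72, 14, 298 and 178 counts after IL-10 blockade, a ratio of pooled CPM of 265 (exact 95% interval 73.1 to 2197, counting error only). Igkv4-70 had 1, 0 and 0 counts against 153, 57, 56 and 35, a ratio of 284 (50.6 to 11265; adjusted p = 0.00526). Igkv4-80 had 0, 0 and 3 counts against 281, 78, 36 and 14, a ratio of 129 (43.7 to 627). These wide intervals come from the few counts in WT controls. Igkv4-86 had 2, 0 and 0 counts against 29, 230, 28 and 3, a ratio of 137 (37.6 to 1136), and replicate 4 was only just above the controls. Igkv12-38 had 0, 0 and 4 counts in WT controls and 221, 185, 105 and 40 after blockade (fitted log2 fold change 6.85 ± 0.91 SE).

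IL-10 blockade was also set against the other models. Against DSS 61 of 74 segments were higher and 0 lower (20.4% and 21.6% of all genes), and against DNBS 65 were higher and 1 lower (11.2% and 11.3%). Among the 58 segments that reached the minimum count over the other 9 mice, 46 were higher than in DSS and 0 lower, and 51 were higher than in DNBS and 1 lower. These comparisons use the same 4 IL-10 blockade mice. Of the segments with large rises in them, Igkv16-104 and Igkv6-14 are among the 58, and the others named here are not and are given without a p. The segment below DNBS was Igkv4-62, named after its values were seen. It had 12.2% of the Igkv counts in DNBS replicate 14 and at most 0.131% in any other mouse. It reached the minimum count only through DNBS replicate 14, so the 1 lower call describes that mouse. Without that mouse Igkv4-62 was no longer tested, and 0 of the 73 segments left were lower than in DNBS. Igkv12-38 was among the largest rises in both, with 0, 0 and 1 counts in DSS and 1, 0 and 0 in DNBS against 40 to 221 after blockade (ratios of pooled counts 555, interval 99.2 to 21966, and 534, interval 95.4 to 21121). Igkv16-104 had 1, 2 and 1 counts in DNBS and 336, 116, 1327 and 181 after blockade (log2 fold change 8.67 ± 1.28 SE, adjusted p = 0.00277). Igkv6-14 and Igkv2-112 were at 0 in all DNBS mice and were at least 29.2-fold and at least 28.01-fold higher after blockade (adjusted p = 0.00682 for Igkv6-14). Igkv9-123 and Igkv1-132 were at 0 in all DSS mice and at least 20.7-fold and at least 8.05-fold higher, but Igkv1-132 had 71, 6, 1 and 1 counts in the 4 blockade mice, so that bound rests on replicate 1. Igkv4-79 had 2, 0 and 0 counts in DSS and an even 58, 86, 57 and 49 after blockade (ratio 126, interval 34.5 to 1046). Igkv1-133 had 1, 3 and 2 counts in DSS and 12, 59, 451 and 47 after blockade (fitted log2 fold change 6.41 ± 1.38 SE).

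**Figure D2:**
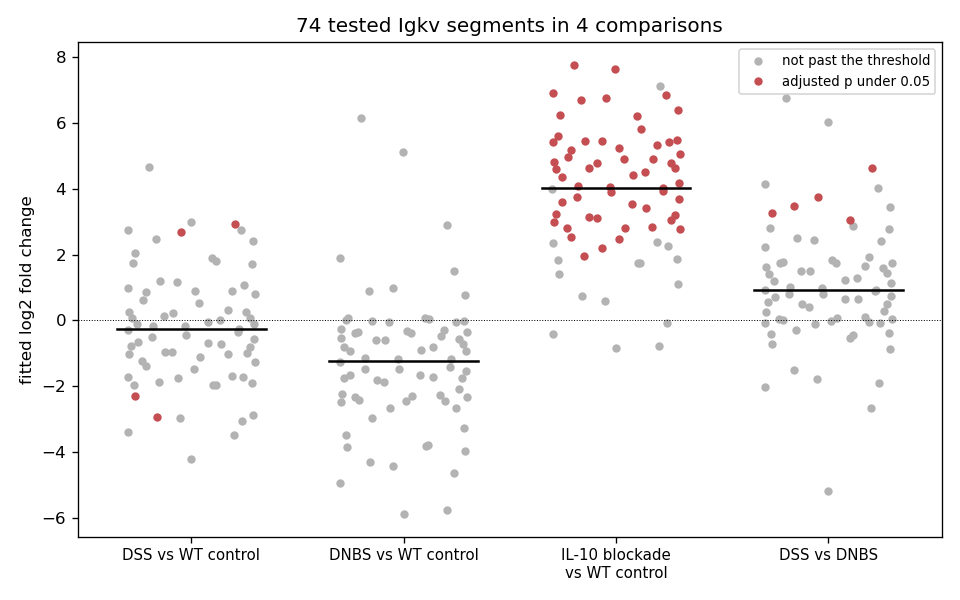
Each point is 1 of the 74 tested segments, with its fitted log2 fold change on the vertical axis, for 4 comparisons, and the lines are medians (-0.26 for DSS, -1.23 for DNBS and 4.02 for IL-10 blockade against WT controls, 0.93 for DSS against DNBS). Red points passed an adjusted p of 0.05 by edgeR's quasi-likelihood test, 57 of 74 after IL-10 blockade, 4 in DSS, 0 in DNBS and 5 between DSS and DNBS.

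In DSS colitis few segments passed the threshold. Against WT controls 2 of 74 were higher and 2 lower, fewer than the 13.2% and 11% of all genes called in that comparison. Fitted log2 fold changes ran from -4.20 to 4.67. By edgeR's test 15 segments had an unadjusted p under 0.05, 8 of them lower in DSS. The median variation between mice in edgeR's fit was 72.8% for segments and 22.1% over all genes, so a change of a given size passed less easily in a segment. Igkv6-32 rose from 0.609, 0.532 and 0.410 CPM in WT controls to 0.818, 7.58 and 3.68 CPM in DSS (log2 fold change 2.93 ± 0.87 SE, adjusted p = 0.0292), and DSS replicate 6 was the highest. Igkv3-10 rose from 0.152, 0.200 and 0.0820 CPM to 2.01, 0.478 and 0.479 CPM (2.69 ± 0.90 SE, adjusted p = 0.0468). Igkv4-57-1 fell from 0.838, 3.59 and 4.26 CPM to 0.440, 0.205 and 0.479 CPM (-2.93 ± 0.82 SE, adjusted p = 0.0242). Igkv17-127 fell from 2.21, 6.26 and 3.11 CPM to 0.629, 0.547 and 1.199 CPM (-2.30 ± 0.64 SE, adjusted p = 0.0236). None of the 4 overlapped between groups, but the share of all called genes without overlap is not given here. The calls were also fragile. Without WT control replicate 1, WT control replicate 2 or DSS replicate 8, 0 segments were higher and 2 lower. Without DSS replicate 5, 2 were higher and 0 lower, and without DSS replicate 6, 3 were higher and 0 lower. Without WT control replicate 4, 0 were higher and 1 lower. With all mice, none passed at an adjusted p of 0.01 by edgeR.

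In DNBS colitis 0 of 74 segments passed in either direction by edgeR, beside 0.143% of genes higher and 0.00531% lower. The smallest adjusted p was 0.0626, and 22 segments had an unadjusted p under 0.05, 19 of them with lower values in DNBS. DESeq2 on the 2 groups called 1 higher and 12 lower of 56, of which 20 had no adjusted p. Over all 18937 genes in that run it called 1129 higher and 771 lower. The median fitted log2 fold change of the 74 was -1.23 (-1.04 with segments at 0 in a group set at their bound), against 0.01 over all genes. DSS and DNBS were compared directly as well, with 5 segments higher in DSS and 0 lower beside 5.44% and 4.98% of genes. Igkv8-24 had 8.18, 1.64 and 18.3 CPM in DSS and 0.895, 0.0775 and 1.53 CPM in DNBS (log2 fold change 3.48 ± 0.96 SE, adjusted p = 0.0416). Igkv6-32 and Igkv3-10 differed by 3.74 ± 0.94 SE and 3.28 ± 0.96 SE (adjusted p = 0.0315 and 0.0486). Igkv5-39 had 12, 3 and 66 counts in DSS against 1 in each DNBS mouse (ratio 26.0, interval 8.57 to 129; adjusted p = 0.0295), and Igkv5-43 differed by 3.06 ± 0.90 SE (adjusted p = 0.0495). All 5 calls were lost when DSS replicate 8, DNBS replicate 14 or DNBS replicate 16 was left out or the 2 groups were fitted alone, and without DNBS replicate 11 just 1 was left.

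Usage describes how a mouse's Igkv counts were divided among the segments, whatever their total. Averaged with equal weight for groups and for mice within groups, 16 segments held 50% of the usage, and the first 10 held 37.4%. Igkv1-117 came first with 6.33%, followed by Igkv8-30 with 4.56%, Igkv1-135 with 4.22%, Igkv10-96 with 4.14%, Igkv1-110 with 3.78%, Igkv8-24 with 3.68%, Igkv8-27 with 3.02%, Igkv8-21 with 2.61%, Igkv2-109 with 2.55% and Igkv14-111 with 2.51%. Divided by exon length the same 10 segments led, with Igkv1-117 and Igkv8-30 again first. Differences between neighbours in this order are smaller than the spread between mice: the share of Igkv1-117 ran from 2.58% to 17.6% and that of Igkv8-30 from 0.51% to 17.6%.

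Each mouse had its own leading segment more often than not, with 10 different leaders in 13 mice. WT control replicates 1, 2 and 4 were led by Igkv1-117 (17.6%), Igkv8-30 (7.69%) and Igkv12-46 (13.2%). The leaders of DSS replicates 5, 6 and 8 were Igkv3-2 (13.4%), Igkv14-111 (17.2%) and Igkv8-24 (12.7%). DNBS replicates 11, 14 and 16 were led by Igkv4-50 (16.1%), Igkv4-70 (13.2%) and Igkv8-30 (8.82%). After IL-10 blockade the leaders were Igkv8-30 (17.6%), Igkv8-21 (16.9%), Igkv1-117 (11.1%) and Igkv8-27 (12.7%) in replicates 1 to 4. No 2 mice of a group shared a leader.

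A share of at least 10% was usually private to a mouse. In 11 of 13 mice some segment reached 10%, 12 segments did so in some mouse, and 11 of these 12 did so in 1 mouse only, Igkv1-117 being the exception with 17.6% and 10.0% in WT control replicates 1 and 4 and 11.1% in IL-10 blockade replicate 3. This count depends on the cut of 10%. Just below it, Igkv8-27 held 9.53% in IL-10 blockade replicate 2, Igkv8-24 8.92% in DSS replicate 5 and Igkv8-30 8.82% in DNBS replicate 16. Igkv12-46 took 388 counts in WT control replicate 4, 26.3 times its median share in the other 12 mice (0.501%), where its highest share was 1.57%. Igkv4-70 took 87 counts in DNBS replicate 14, 40.4 times the median of the others. Igkv4-50 took 179 counts in DNBS replicate 11, 21.8 times the median of the others, and had 0 counts in DNBS replicate 16. Igkv14-111 took 140 counts in DSS replicate 6, 19.1 times the median of the others. In that mouse Igkv6-32 stood at 13.7%, and neither segment shares a window with another gene. Igkv4-63 reached 7.56% in DSS replicate 8 and 0% in DNBS replicates 14 and 16. Igkv9-123 and Igkv12-38 were not private to a mouse, although 7 and 6 of the 13 mice were at 0. Igkv9-123 held 0.587% in IL-10 blockade replicate 3, 0.473% in replicate 1 and 0.460% in WT control replicate 2. Igkv12-38 held 1.32%, 1.15%, 0.560% and 0.583% in IL-10 blockade replicates 1 to 4.

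**Figure D3:**
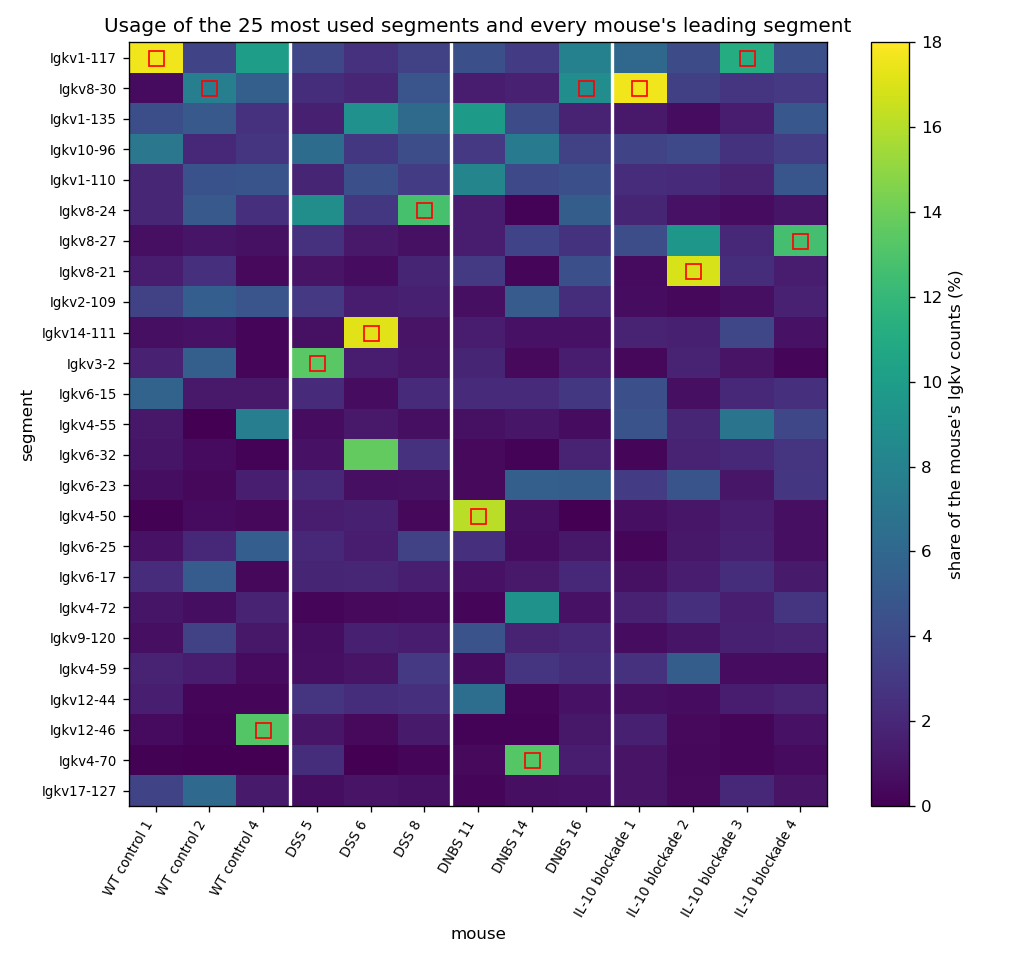
Rows are the 25 most used segments, which include every mouse's leading segment, columns are the 13 mice by group, and colour is the share of that mouse's Igkv counts in percent. Red squares mark each mouse's leading segment: 10 different segments lead, with shares from 7.69% to 17.6%, and most bright cells stand alone in their row.

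The spread between mice of a group differed between segments. Among the 20 most used, Igkv1-110 varied least, with a mean within-group coefficient of variation of its share of 43.7%, and its shares were 1.91%, 4.53% and 4.66% in WT controls, 1.85%, 4.43% and 3.17% in DSS, 8.21%, 3.95% and 4.41% in DNBS and 2.30%, 2.20%, 1.76% and 4.78% after IL-10 blockade. Igkv3-2 varied most, at 95.4%, with 1.66%, 5.45% and 0.34% in WT controls, 13.4%, 1.35% and 1.06% in DSS, 1.89%, 0.456% and 1.47% in DNBS and 0.413%, 1.79%, 0.955% and 0.219% after blockade. In edgeR's fit the median biological coefficient of variation was 72.8% for the 74 segments, 73.0% for the 78 heavy chain variable (Ighv) segments tested, 36.7% for Igkc and 22.1% over all genes. Among the 74 segments it ran from 32.9% for Igkv4-79 to 205% for Igkv8-26.

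By the inverse of the summed squared shares, how evenly the counts were spread over segments did not separate the groups. The effective number of segments, the inverse of the summed squared shares, was 20.5 ± 4.31 in WT controls, 20.3 ± 4.58 in DSS, 20.4 ± 7.31 in DNBS (SD, n = 3 each) and 23.5 ± 5.10 after IL-10 blockade (SD, n = 4), although the last group had by far the highest level. The lowest was 14.96 in DSS replicate 6 and the highest 28.8 in DNBS replicate 16. By the exponential of the Shannon entropy, IL-10 blockade mice (34.83 to 45.4) lay above WT controls (27.7 to 34.75) without overlap, though narrowly. DSS (29.5 to 38.7) and DNBS (24.7 to 39.996) overlapped both. The 5 leading segments of a mouse held between 30.6% and 47.6% of its counts. More segments were detected after IL-10 blockade, 84 to 99 against 57 to 85 in the other mice, but thinned to 340 counts, the smallest Igkv total, the expected number was 57.2 to 62.6 against 47.2 to 60, and the ranges overlapped.

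Usage overlapped about as much between groups as within them. The overlap of a pair of mice, the sum over segments of the smaller share, had a median of 52.1% over the 15 pairs within groups (35.8% to 63.3%) and 48.1% over the 63 pairs between groups (37.2% to 63.2%). The 6 pairs of IL-10 blockade mice had a median of 60.01% (54.2% to 63.3%), and IL-10 blockade mice paired with the other 9 mice had 48.9%. Their libraries also held the most Igkv counts, and the part of depth in this was not tested.

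By family, the 33 members of Igkv4 took 19.3% of usage, the 12 members of Igkv8 16.8%, the 13 of Igkv1 15.1% and the 9 of Igkv6 12.6%. Family shares differed between mice as well: Igkv4 ran from 9.59% in WT control replicate 2 to 48.2% in DNBS replicate 14, where Igkv4-70, Igkv4-62 and Igkv4-72 (9.27%) stood out, and Igkv8 from 6.23% in that mouse to 33.3% in IL-10 blockade replicate 2. Along the locus, the 40 segments nearest to Igkc, 34 of them genes, took 36.3% of usage and the farthest 40, with 22 genes, took 28.9%. The 2 middle stretches of 40, also with 22 genes each, took 13.8% on the distal and 20.9% on the proximal side. Segments in the orientation of Igkc, 38 of the 100 genes, took 39.1% of usage. Their share was 47.8%, 52.4% and 40.9% in the WT controls and 23.1%, 21.3%, 47.9% and 34.1% in IL-10 blockade replicates 1 to 4, so the groups overlapped through replicate 3.

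**Figure D4:**
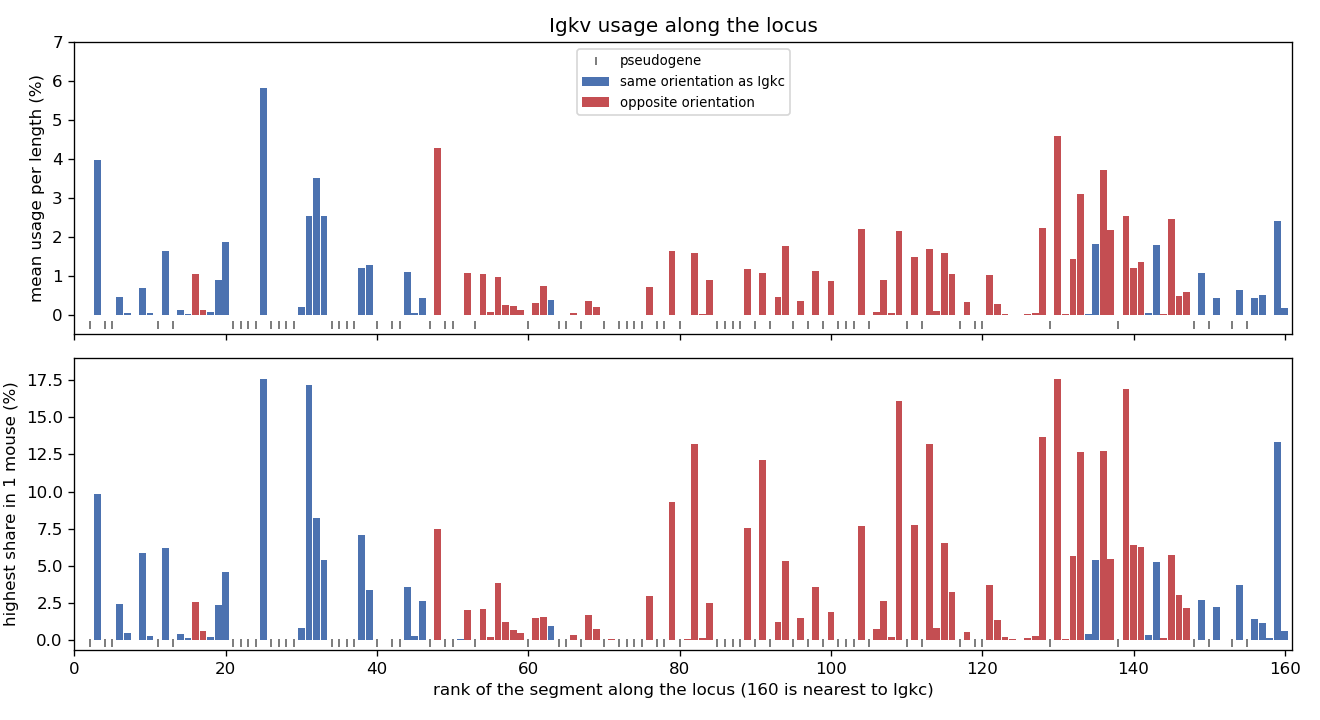
The horizontal axis is the rank of each segment along the locus, with 160 nearest to Igkc, blue bars are genes in the orientation of Igkc, red bars genes in the opposite orientation, and grey ticks pseudogenes. The upper panel is mean usage corrected for exon length in percent, highest for Igkv1-117, and the lower panel the highest share reached in 1 mouse in percent of Igkv counts, up to 17.6%.

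Other genes of the antibody pathway were read beside the segments from lists chosen with results of these data known. After IL-10 blockade Igkc, to which all Igkv segments are joined, rose by a log2 fold change of 2.97 ± 0.44 SE (adjusted p = 0.000574). Igkc was the only gene past the threshold among the 5 tested in the list of kappa constant and joining genes. The median log2 fold change of those 5 was 1.32. Igha, the heavy chain of IgA, rose by 3.20 ± 0.47 SE (adjusted p = 0.000535), and Jchain, which links IgA into dimers, rose by 3.34 ± 0.52 SE (adjusted p = 0.000708). All 11 plasma cell genes were higher, as were all 6 lambda light chain genes tested, 5 of 7 heavy constant genes and 53 of 78 Ighv segments, with 0 lower in each list, beside 22.7% of all genes higher and 22.3% lower. The plasma cell list is not particular to those cells, since it summed to 576 to 683 CPM in the Rag2-/- controls and 632 to 993 CPM in WT controls, against 2304 to 3258 CPM after blockade, and 3, 3 and 2 of its 11 genes were higher in TRUC, TCT and anti-CD40 than in their controls. In contrast, 0 of 12 B cell genes passed in either direction: the list's summed level was 48.6 to 418 CPM after blockade and 119 to 204 CPM in WT controls. Ms4a1, which encodes the B cell surface protein CD20 that plasma cells largely lose, had 17.4, 19.8, 43.5 and 3.34 CPM after blockade and 12.03, 11.4 and 16.8 CPM in WT controls, so the groups overlapped (log2 fold change 0.65 ± 0.62 SE, adjusted p = 0.408, and 0.02 on the log2 scale without IL-10 blockade replicate 3). Markers of other tissue parts moved as well, 8 of 8 T cell genes, 4 of 5 neutrophil genes and 5 of 6 epithelial genes higher and 3 of 5 smooth muscle genes lower, and their part in the Igkv result was not tested.

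The kappa transcripts kept a rather constant make-up in most mice. There were 0.605 ± 0.0605 Igkv counts per Igkc count in WT controls, 0.653 ± 0.0299 in DSS and 0.579 ± 0.0379 in DNBS (SD, n = 3 each). After IL-10 blockade the ratio was 0.888, 0.884, 0.819 and 0.551 in replicates 1 to 4, so the first 3 lay above all other mice and replicate 4 within them. Lambda constant genes made up 4.41% to 11.4% of light chain constant counts in WT controls and 15.3% to 25.4% after IL-10 blockade, without overlap, while DSS ran from 5.49% to 19.4% and DNBS from 4.32% to 13.1%. The lambda constant counts were Iglc1, Iglc2, Iglc3 and Iglc4 summed, and reads shared among these near-identical genes may not have been counted.

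In DSS the Igkv total overlapped that of WT controls, and no B cell gene passed by the test used throughout. Ms4a1 had 37.4, 18.6 and 55.5 CPM in DSS (log2 fold change 1.47 ± 0.66 SE, adjusted p = 0.123) and the B cell list 184 to 544 CPM, with 0 of 12 past the threshold, while Jchain differed by -1.06 ± 0.50 SE (adjusted p = 0.138) and Igkc by -0.54 ± 0.42 SE (adjusted p = 0.373). Of the 11 plasma cell genes, which include Jchain, 2 were higher in DSS and 0 lower, with a median log2 fold change of 0.50. The difference of Ms4a1 in DSS passed with all 9 groups in 1 fit, with the 2 groups alone and by DESeq2. Of 6 lymphoid follicle genes 4 were higher in DSS, beside 13.2% of all genes. In DNBS 0 of 12 B cell genes, 0 of 11 plasma cell genes and 0 of 7 heavy constant genes passed, where 0.143% of all genes were higher and 0.00531% lower.

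Outside the immunoglobulin genes, the 5 whose CPM ranked the 13 mice most like the Igkv total were Jchain (Spearman's rho 0.99), ENSMUSG00000074873 (0.93), Kcnmb4os2 (0.92), Mzb1 (0.91) and Eaf2 (0.89). Over the 9 mice without IL-10 blockade the rho was 0.98, 0.90, 0.85, 0.78 and 0.72. Mzb1 encodes a chaperone of immunoglobulin assembly in plasma cells and Eaf2 a transcription elongation factor. These values are descriptions over mice that share groups, and no p is given.

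**Figure D5:**
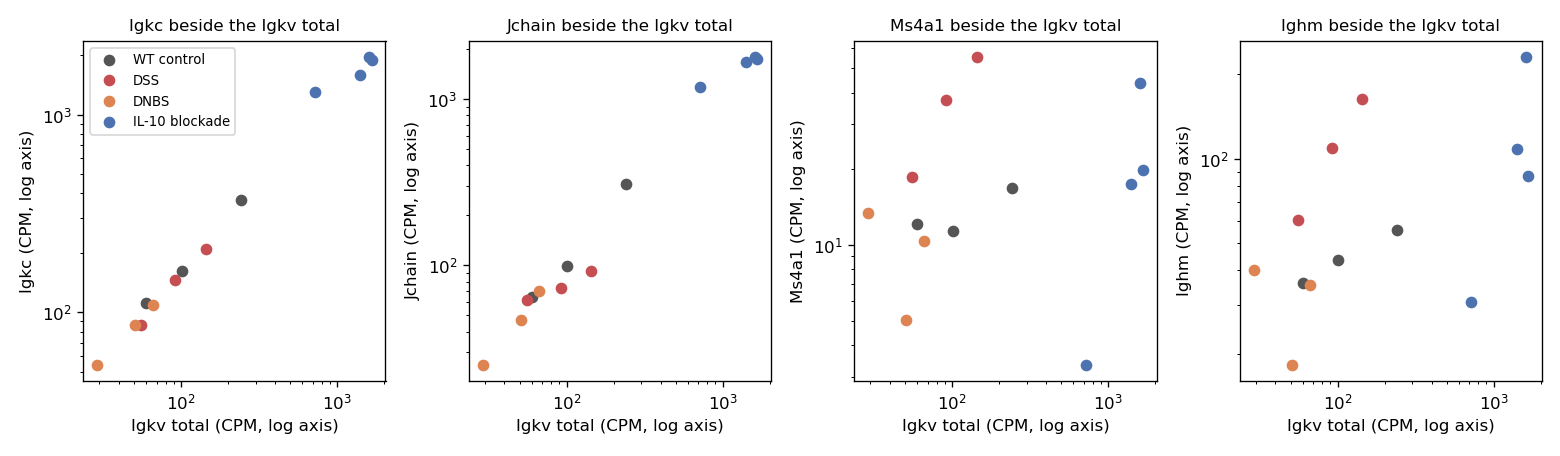
Each point is 1 of the 13 mice, coloured by group, with the Igkv total in CPM on a horizontal log axis and the CPM of Igkc, Jchain, Ms4a1 or Ighm on a vertical log axis. Igkc and Jchain are highest in the mice with the highest Igkv total, while Ms4a1 is highest in DSS replicate 8 (55.5 CPM) and lowest in IL-10 blockade replicate 4 (3.34 CPM), and Ighm, the heavy chain of IgM, had an adjusted p of 0.0623 after IL-10 blockade.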

How the data were processed

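Colon RNA-seq of 29 mice in 9 groups was used as the authors deposited it: raw whole-number counts per gene and mouse, without normalization. The submitters' processing notes name Trimmomatic, HISAT2, HTSeq and the build GRCm38, with no versions, and the handling of reads with several matches is not given in the sources used here. Groups came from the sample labels. The 92 spike-in rows held 0 counts and were left out.

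Library totals ran from 10725564 to 14977094, and 3 counts, the most that a count of 0 allows, are 0.179 to 0.313 CPM. Among the 33 within-group pairs of libraries the lowest chi-square per degree of freedom was 3.42, so each was counted as a separate sample. P-values measure the spread between these libraries.

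Counts were scaled by TMM over all 29 mice and tested with edgeR 4.0.16 in R 4.3.3 (quasi-likelihood, genes averaging 3 counts or more, Benjamini-Hochberg over all genes tested, threshold 0.05). The 4 groups with B cells were fitted together (13 mice, 18846 genes), and the Rag-deficient comparisons over all 29 mice (18616 genes). Positions, exon lengths and sequences came from GENCODE M21. The script was tested on simulated data.

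The members, gene lists and rules were chosen with earlier results of these data known. The segments named are the 10 with the highest mean share, in each comparison up to 5 rises and 5 falls past the threshold without overlap, the 5 with the highest single-mouse share relative to the median with at least 100 counts, the 5 with most counts in Rag-deficient mice, and the least and most variable of the 20 most used. The alternatives were RLE size factors, immunoglobulin genes left out of the scaling, no filter, all 9 groups in 1 fit, 2 groups alone, DESeq2 1.42.0, a threshold of 0.01, a replicate block, each mouse left out, pseudogenes or segments with shared sequence left out, totals without TMM, and the Shannon entropy.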

Additional observations from a re-analysis of the deposited data

Results flagged for a closer look

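In the group of 4 IL-10 blockade mice, 1 mouse stood apart from the other 3 by Dixon's ratio in 4 of the 48 quantities examined. Chance gives about 1 in 20 for quantities not chosen by their values. The 4 segments below were named partly through high values in these same mice, so that rate does not hold for them. Igkv8-30 took 17.6% of the Igkv counts in replicate 1, and Igkv8-21 took 16.9% in replicate 2. Igkv4-86 stood at 1.43% in replicate 2. Igkv1-132 reached 0.425% in replicate 1.

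The models were compared by edgeR's quasi-likelihood test of the difference itself, since the control group cancels out. IL-10 blockade and DSS differed in 61 segments, beside 20.4% of all genes higher after blockade and 21.6% lower. IL-10 blockade and DNBS differed in 66, beside 11.2% and 11.3%. DSS and DNBS differed in 5 (6.76% of those tested), all higher in DSS, near the 5.44% of all genes higher, with 4.98% lower. These 5 calls were lost without DSS replicate 8, DNBS replicate 14 or DNBS replicate 16. Of the segments named next for IL-10 blockade, Igkv6-14 and Igkv16-104 alone reached the minimum count without the blockade mice, so the values of the others are descriptions. Between IL-10 blockade and DSS, Igkv9-123 was at least 20.7-fold and Igkv1-132 at least 8.05-fold higher after blockade, the ratios of pooled counts were 555 for Igkv12-38 and 126 for Igkv4-79, and the log2 difference of Igkv1-133 was 6.41. Between IL-10 blockade and DNBS, Igkv6-14 was at least 29.2-fold and Igkv2-112 at least 28.01-fold higher after blockade, the log2 difference of Igkv16-104 was 8.67, and the ratios were 534 for Igkv12-38 and 272 for Igkv12-98. Between DSS and DNBS the ratio was 26.0 for Igkv5-39, and the log2 differences were 3.74 for Igkv6-32, 3.48 for Igkv8-24, 3.28 for Igkv3-10 and 3.06 for Igkv5-43.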

How the results depend on the processing

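The counts of segments past the threshold after IL-10 blockade, higher except for at most 1 lower against DNBS, held within 1.5 times of 57 against WT controls, 61 against DSS and 66 against DNBS under every alternative run: 43 to 64 segments against WT controls, 46 to 67 against DSS and 47 to 75 against DNBS, and 52 to 60, 51 to 59 and 51 to 66 with 1 mouse left out. The smaller comparisons were less stable. DSS against WT controls had 4 segments, 0 at a threshold of 0.01, 12 by DESeq2, and 1 to 3 with 1 mouse left out. DNBS against WT controls had 0, 2 without the filter, 2 with all 9 groups in 1 fit, 2 with the groups alone, 13 by DESeq2, and 0 to 0 with 1 mouse left out. In that DESeq2 run 1129 of all 18937 genes were higher and 771 lower. DSS against DNBS had 5, 0 at 0.01, 0 with the groups alone, 8 by DESeq2, and 0 to 5 with 1 mouse left out. WT against Rag2-/- controls had 28, 44 with the groups alone, 45 by DESeq2, and 16 to 27 with 1 mouse left out. The cause was not tested.

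Without the segments that share over 10% of their windows, the mean Igkv total was 33.4 CPM in WT controls, 29.4 in DSS, 11.4 in DNBS and 361 after IL-10 blockade, and the effective number of segments 7.45, 4.61, 5.61 and 8.06, since fewer segments were counted. As the exponential of the Shannon entropy it was 32.3, 34.9, 30.8 and 40.03, by construction the larger measure. Unlike the inverse of the summed squared shares, it did not overlap between IL-10 blockade and WT controls. With 1 mouse left out the mean total ran in WT controls from 80.5 to 171 CPM, in DSS from 73.6 to 118, in DNBS from 39.99 to 58.6 and after IL-10 blockade from 1244 to 1561, and the effective number 18.1 to 21.9, 18.8 to 22.9, 16.2 to 22.6 and 21.7 to 25.1.

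Among single genes the log2 fold change of Igkc in DSS ran from -0.88 to 0.11 with 1 mouse left out and was above 0 without WT control replicate 4. Replicate numbers did not pair the mice: in IL-10 blockade against WT controls same-numbered mice correlated between -0.03 and 0.08, and 2 of 6 mice correlated best with their own number. With a replicate block 56 segments were higher after IL-10 blockade, 49 were higher in WT than in Rag2-/- controls and none was tested in TRUC, while the log2 fold change of Ms4a1 after IL-10 blockade turned to -0.19. With 340 to 2941 Igkv counts in the 9 mice without IL-10 blockade, most single segments there rest on few counts. Balb/C reads were counted on a C57BL/6 reference, and the loss of reads that differ from it was not tested.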

Other observations

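Heavy chain variable segments gave 7, 7 and 6 counts in the 3 TCT libraries and 0 in each of the 13 other Rag-deficient libraries, while Igkv segments gave 0, 0 and 3 counts in the same TCT mice. In the 13 mice with B cells the Ighv total ran beside the Igkv total, with 0.781 ± 0.0736 Ighv counts per Igkv count in WT controls, 0.857 ± 0.177 in DSS, 0.771 ± 0.0846 in DNBS (SD, n = 3 each) and 0.709 ± 0.102 after IL-10 blockade (SD, n = 4). Ighg2b, the heavy chain of an IgG subclass, had 2.28, 3.99 and 28.6 CPM in WT controls and 271, 297, 1052 and 99.5 CPM in IL-10 blockade replicates 1 to 4 (log2 fold change 5.22 ± 1.09 SE, edgeR adjusted p = 0.00288).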
